A study of Homo sapiens with 12 samples.

Results

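The red cell membrane protein genes GYPB, GYPE, GYPC, ANK1, SPTB, EPB41, EPB42 and SLC4A1 were examined for H2A.Z and acetylated H2A.Z (H2A.Zac) in K562, a leukemia cell line of human origin with erythroid features. Every region of the 6 deposited lists that touched the body of 1 of these 8 protein-coding genes, of 20007 in all, or the 10 kb to either side (GENCODE release 44, hg38) was taken, which gave 89 of the 158028 listed regions. In every sample the endogenous EP400, the scaffold of the TIP60 complex, carried a degradation tag on both alleles and was removed by treatment with 500 nM dTAGV-1 for 24 h. One line, a single clone, was rescued with WT EP400 from the AAVS1 locus, and the other, also a single clone, with Delta-TRRAP EP400, which lacks the part that binds TRRAP (ΔTRRAP). For each line there were 2 biological replicates each of H2A.Z ChIP, H2A.Zac ChIP and input, 12 libraries in all. The comparison asks how the loss of the TRRAP module from TIP60 changes where H2A.Z sits and where it is acetylated.

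The authors merged both replicates of a line and set one line against the other with MACS2 bdgdiff. It puts each region in 1 of 3 classes by a log10 likelihood ratio. Regions higher in WT are called lost here, regions higher in ΔTRRAP are called gained, and the ratio in these classes is at least 3. The third class is unchanged, with a ratio under 3. The ratio is the single value a region carries. A deep region can reach a high ratio with a small change, so the ratio cannot be read as a fold. With merged replicates in the lists and a depth that is unknown here, neither the replicate spread nor a test between the lines can be had. The interval given beside a share is a 95% Wilson interval. It covers counting error alone and treats neighboring regions as independent. With 1 clone per line, a difference between the lines cannot be told apart from a difference between clones. ChIP of a whole culture does not tell a mark lost in all cells from a mark lost in part of them. The lists hold no expression values, so the erythroid markers of the line could not be checked.

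The membrane of the red cell rests on a protein skeleton. Spectrin, made of alpha and beta chains, forms the filaments of that skeleton. Protein 4.1 (EPB41) joins spectrin to actin and to glycophorin C (GYPC), and ankyrin (ANK1) joins spectrin to the anion exchanger band 3 (SLC4A1), a contact that protein 4.2 (EPB42) stabilizes. Glycophorins B and E (GYPB and GYPE) arose with glycophorin A by gene duplication. H2A.Z is a histone variant found at promoters and enhancers, which TIP60 both places in nucleosomes and acetylates.

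The H2A.Z changes at the 8 genes were nearly all losses, while the H2A.Zac changes went both ways. For H2A.Z there were 36 regions, of which 12 were lost, 1 was gained and 23 were unchanged. Among all H2A.Z regions 19.8% were lost and 14.1% were gained. The gained share of the changed H2A.Z regions was 7.69% at the 8 genes (1.37 to 33.3%), against 41.6% over the whole list. In the same kind of window over all protein-coding genes, where a region counts once per window, it was 45.8%. The losses came from 3 genes, ANK1 with 5, EPB41 with 4 and SPTB with 3. For H2A.Zac there were 53 regions, of which 11 were lost, 12 were gained and 30 were unchanged. In the whole H2A.Zac list 25.9% were lost and 26.3% were gained. The gained share of the changed H2A.Zac regions was 52.2% (33.0 to 70.8%). That of the whole list, 50.4%, and that of the windows of all protein-coding genes, 54.8%, lay within this interval. At a ratio of at least 10 the share at the 8 genes fell to 16.7% (1 of 6), with 40.7% in the whole list. For regions of at least 500 bp it was 33.3% (4 of 12), with 48.7% in the whole list. The changed share of all regions was 36.1% for H2A.Z (22.5 to 52.4%) beside 34.0% in the whole list, and 43.4% for H2A.Zac (31.0 to 56.7%) beside 52.1%.

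**Figure D1:**
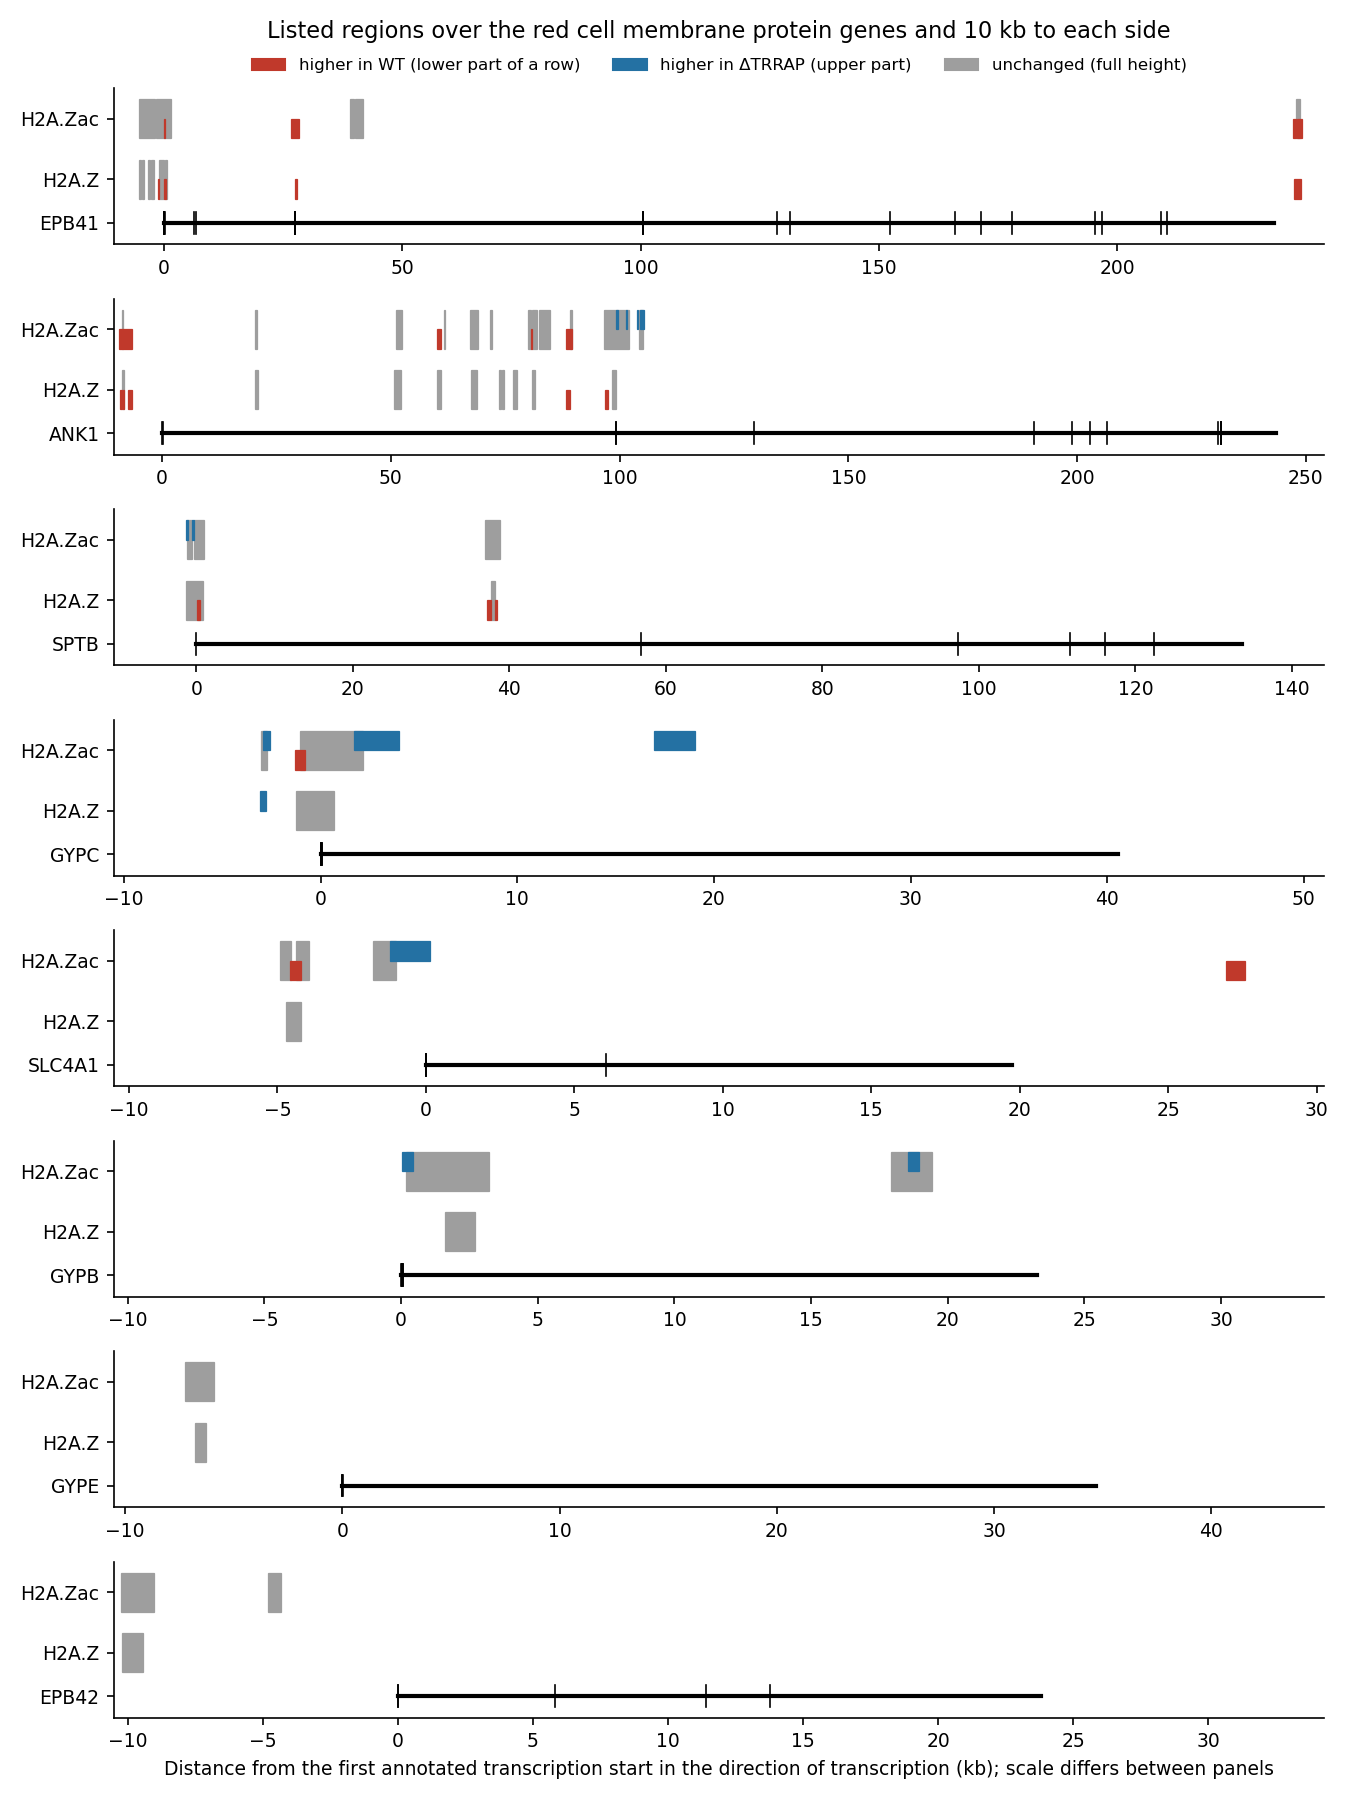
Listed H2A.Z and H2A.Zac regions over each gene and 10 kb to each side, by distance from the first annotated start in kb in the direction of transcription; the black line is the gene and ticks are annotated starts. Red blocks are lost regions, blue blocks gained and gray blocks unchanged; EPB41 shows red blocks and no blue ones, GYPB blue and no red ones, and GYPE and EPB42 gray blocks outside the gene.

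By gene, 3 of the 8 had a lost H2A.Z region, where 27.3% of all protein-coding genes with the same flanks had one, and 1 had a gained H2A.Z region, where 26.6% had one. A lost H2A.Zac region was found at 4 of the 8 (GYPC, ANK1, EPB41 and SLC4A1), with 49.9% among all genes, and a gained one at 5 of the 8 (GYPB, GYPC, ANK1, SPTB and SLC4A1), with 59.4% among all genes. GYPE and EPB42 had no changed region of either mark, and the share of all genes without one is not given here. All 8 genes had an unchanged region of both marks. Among all protein-coding genes 79.1% had an unchanged H2A.Z region and 77.6% an unchanged H2A.Zac region. The windows differ in length, from 39.8 kb for SLC4A1 to 263.5 kb for ANK1, and their median was 57.6 kb, against 47.5 kb over all protein-coding genes, so counts per gene are not counts per length.

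**Figure D2:**
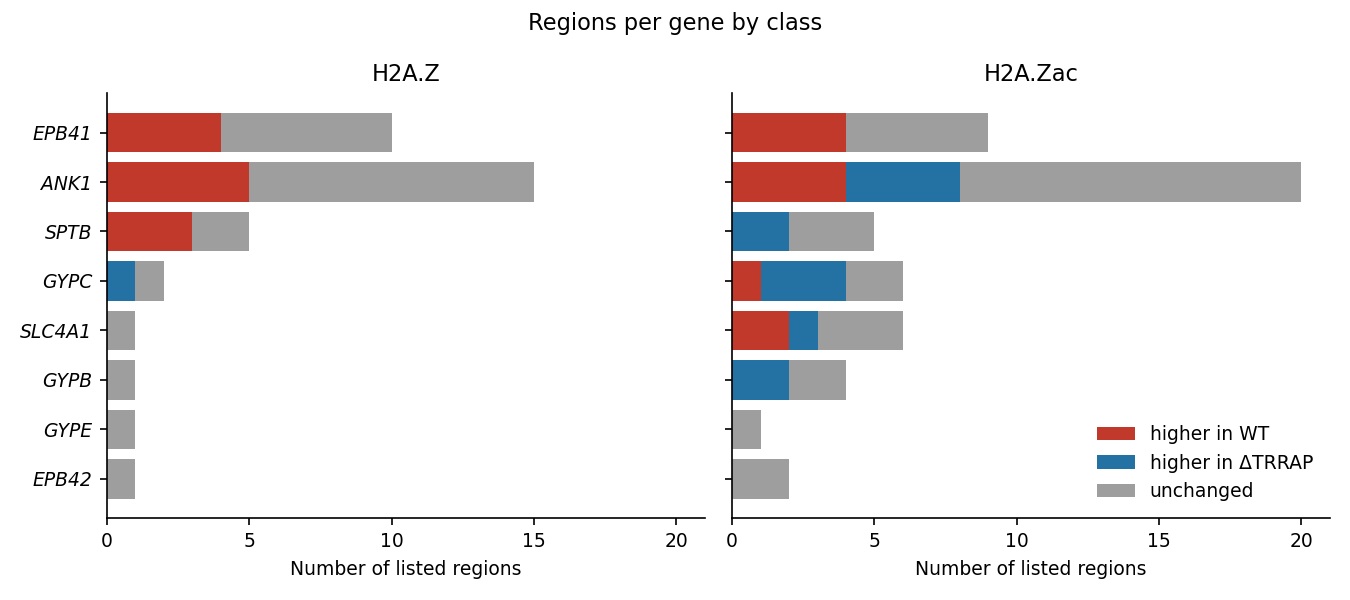
Number of listed regions per gene and class, with H2A.Z on the left and H2A.Zac on the right. ANK1 holds the most regions of both marks, and the lost H2A.Z regions are those of EPB41, ANK1 and SPTB.

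At the transcription start, H2A.Zac was listed at more of the 8 genes than H2A.Z, a difference that was not tested. An H2A.Zac region lay within 1 kb of an annotated start of the gene at 6 of the 8, all but GYPE and EPB42, and an H2A.Z region at 4, GYPC, ANK1, SPTB and EPB41. The shares among all protein-coding genes were 69.2% for H2A.Zac and 67.1% for H2A.Z. The start of GYPC and of EPB41 carried a lost H2A.Zac region, as did 22.4% of all genes. The starts of GYPB, ANK1, SPTB and SLC4A1 carried a gained one, as did 41.5% of all genes. A lost H2A.Z region lay at the starts of SPTB and EPB41, and 9.32% of all genes had one. No member had a gained H2A.Z region at its start, against 16.2% of all genes. EPB41 was the single member at which both marks were lost at a start, and the share of all genes with such a start is not given here.

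EPB41 (ENSG00000159023, chr1:28887091-29120046, plus strand) lost both marks and gained neither. Of its 10 H2A.Z regions 4 were lost and 6 were unchanged, and of its 9 H2A.Zac regions 4 were lost and 5 were unchanged. The gene has an upstream group of starts and a second group about 27.5 kb farther on, which holds the start of the canonical transcript. At the second group a single H2A.Zac region of 1673 bp, chr1:28913753-28915425, was lost with a ratio of 11.6, and no unchanged H2A.Zac region lay beside it. A lost H2A.Z region of 451 bp with a ratio of 9.74 lay inside it, from 2 bp before the canonical start, over exon 1 and into intron 1. That H2A.Z ratio was higher than 87.7% of the lost H2A.Z list. At the upstream group the picture was mixed. A lost H2A.Zac region of 282 bp (ratio 3.52) and a lost H2A.Z region of 269 bp (ratio 7.62) lay over the starts, nested in or next to unchanged regions, of which the H2A.Zac one was 3107 bp wide. A further lost H2A.Z region of 253 bp (ratio 3.93) lay 1.12 kb upstream of the first start. Farther upstream, 4 H2A.Z regions and a 3322 bp H2A.Zac region were unchanged, part of them near the start of a Y_RNA gene.

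The promoters of both groups of EPB41 starts are shown because lost regions of both marks lay within 1 kb of each. Over the upstream stretch H2A.Z was unchanged and H2A.Zac unchanged and in part lost, and the lost H2A.Z region began past its end. The second stretch lay in the lost H2A.Zac region, and the lost H2A.Z region began at its last 2 bases. They are the 250 bases before a start in RefSeq (GRCh38.p14, plus strand), chr1:28886850-28887099 and chr1:28914319-28914568. Both have a GC content of 68.4%. Capitals mark matches to AGATAA or TGATAA or AGATAG or TGATAG on either strand, the letters bound by GATA factors such as GATA1, the main erythroid regulator.
EPB41 upstream start: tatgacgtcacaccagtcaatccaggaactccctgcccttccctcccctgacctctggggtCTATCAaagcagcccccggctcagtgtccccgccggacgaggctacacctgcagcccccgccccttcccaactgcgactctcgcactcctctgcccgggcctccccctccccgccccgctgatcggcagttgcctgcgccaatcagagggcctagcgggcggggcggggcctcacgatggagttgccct
EPB41 canonical start: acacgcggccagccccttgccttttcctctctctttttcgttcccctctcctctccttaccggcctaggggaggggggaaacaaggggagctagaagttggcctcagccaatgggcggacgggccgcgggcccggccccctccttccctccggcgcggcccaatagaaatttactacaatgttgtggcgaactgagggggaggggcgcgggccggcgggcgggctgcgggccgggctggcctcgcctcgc

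The remaining lost regions of the EPB41 window lie at another gene's promoter. They are past the 3′ end of EPB41, within 1 kb of a start of TMEM200B, and comprise an H2A.Z region of 1525 bp (ratio 7.43) and H2A.Zac regions of 633 bp (ratio 10.8) and 927 bp (ratio 6.17). Without all regions at the TMEM200B start, a choice made after the values were seen, the gained share of the changed H2A.Zac regions of the 8 genes was 57.1% and that of the H2A.Z regions 8.33%. Inside intron 1 of EPB41, 11.4 and 12.6 kb past the canonical start, 2 H2A.Zac regions of 987 and 1577 bp were unchanged, with no H2A.Z region over them.

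SPTB (ENSG00000070182, chr14:64746283-64879907, minus strand), which encodes the beta chain of spectrin, showed opposite directions of the marks. It had 3 lost and 2 unchanged H2A.Z regions, and 2 gained and 3 unchanged H2A.Zac regions. At the canonical start an unchanged H2A.Z region of 2125 bp and an unchanged H2A.Zac region of 1225 bp covered exon 1. A lost H2A.Z region of 336 bp (ratio 4.14) was nested in the former, 0.107 kb inside the gene. The gained H2A.Zac regions, of 272 bp (ratio 6.91) and 267 bp (ratio 3.86), lay 0.262 and 1.04 kb upstream of the start, at either end of an unchanged H2A.Zac region of 626 bp and on unchanged H2A.Z. The lncRNA ENSG00000288779 also has a start there. Both H2A.Zac gains and the H2A.Z loss were narrow parts of a start region that was otherwise unchanged. No region was listed at the other starts of SPTB, 56.8 kb and more downstream.

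The second site of SPTB lay in intron 1, 36.9 kb from the start. There an H2A.Zac region of 1936 bp was unchanged (ratio 0.47), and under it H2A.Z was lost on both sides of an unchanged H2A.Z region, over 304 bp (ratio 4.11) and over 436 bp (ratio 6.12). The promoter (RefSeq, GRCh38.p14, chr14:64879908-64880157) and the center of the 436 bp intronic region (hg38, chr14:64842345-64842644) are shown on the minus strand with the same matches in capitals. The promoter held 2 matches and the intronic stretch 1, and their GC contents were 72.0% and 44.3%.
SPTB canonical start: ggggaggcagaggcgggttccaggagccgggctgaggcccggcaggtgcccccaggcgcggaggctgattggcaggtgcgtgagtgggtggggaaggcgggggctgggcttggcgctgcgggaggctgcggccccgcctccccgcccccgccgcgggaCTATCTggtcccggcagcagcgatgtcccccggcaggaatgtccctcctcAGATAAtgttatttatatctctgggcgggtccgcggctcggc
SPTB intron 1, H2A.Z lost: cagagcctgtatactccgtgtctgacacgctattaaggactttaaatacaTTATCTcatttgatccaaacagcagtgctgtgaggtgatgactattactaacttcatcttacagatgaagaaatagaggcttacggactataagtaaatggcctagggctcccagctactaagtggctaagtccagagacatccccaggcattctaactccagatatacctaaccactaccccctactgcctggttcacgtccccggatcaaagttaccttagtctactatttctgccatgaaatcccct

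Among the glycophorins, GYPC (ENSG00000136732, chr2:126656133-126696667, plus strand) gained H2A.Zac away from its start. The gained H2A.Zac region with the highest ratio spanned 2059 bp in intron 1, chr2:126673093-126675151, 16.9 kb from the start, with a ratio of 12.1. No gained region of the 8 genes had a higher ratio, and it lay above 80.9% of the gained H2A.Zac list. A second gained H2A.Zac region, 2277 bp wide with a ratio of 8.82, began 1.68 kb past the canonical start. It overlapped by its first part an unchanged H2A.Zac region of 3227 bp that spanned the start. Neither of these gained regions had an H2A.Z region over it. On the other side of the start, 0.777 kb before the first annotated start, an H2A.Zac region of 531 bp was lost (ratio 8.52). It lay over unchanged H2A.Z that spanned the start with 1945 bp, and 283 bp of it were also listed as unchanged H2A.Zac. About 2.8 kb upstream lay the one gained H2A.Z region of the 8 genes, 310 bp wide with a ratio of 3.42, with 46.5% of its length on a gained H2A.Zac region of 348 bp (ratio 3.93) and 79.0% on an unchanged H2A.Zac region of 281 bp. The H2A.Z ratio was close to the cutoff, above only 1.86% of the gained H2A.Z list. H2A.Zac was thus lost at the upstream edge of the GYPC start region and gained at its downstream edge and in the intron. It was also gained, over the 348 bp region, farther upstream of the lost one.

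The promoter of GYPC (RefSeq, GRCh38.p14, chr2:126655908-126656157) and the center of the gained intronic region (hg38, chr2:126673973-126674272), both on the plus strand, are given because H2A.Z and H2A.Zac were unchanged over the former and H2A.Zac was gained over the latter. The intronic stretch touches no exon of GYPC and held 2 GATA matches, 2 of the E-box letters CAGCTG or CAGATG, and 3 CACCC boxes. The promoter held 1 GATA match, 1 match to the E-box letters and 2 CACCC boxes.
GYPC canonical start: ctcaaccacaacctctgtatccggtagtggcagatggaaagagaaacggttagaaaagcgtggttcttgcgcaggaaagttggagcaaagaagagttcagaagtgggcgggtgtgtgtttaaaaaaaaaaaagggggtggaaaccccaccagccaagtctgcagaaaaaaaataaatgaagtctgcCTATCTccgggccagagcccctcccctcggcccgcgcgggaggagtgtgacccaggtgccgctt
GYPC intron 1, H2A.Zac gained: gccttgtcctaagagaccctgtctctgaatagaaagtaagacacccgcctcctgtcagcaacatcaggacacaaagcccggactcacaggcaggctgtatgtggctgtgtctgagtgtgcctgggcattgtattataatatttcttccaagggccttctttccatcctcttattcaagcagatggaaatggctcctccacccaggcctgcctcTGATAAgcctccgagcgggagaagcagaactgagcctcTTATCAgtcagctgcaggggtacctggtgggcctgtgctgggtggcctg

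GYPB (ENSG00000250361, chr4:143996104-144019380, minus strand), which carries the S and s blood group antigens, had 2 gained and 2 unchanged H2A.Zac regions and 1 unchanged H2A.Z region. The gained region at the start, chr4:144018934-144019339, was 406 bp wide with a ratio of 4.84 and began 0.041 kb inside the gene, over several of the starts that follow the canonical one. An unchanged H2A.Zac region of 3041 bp followed it into intron 1, and the unchanged H2A.Z region of 1095 bp lay 1.59 kb from the start. The second gained region, 409 bp wide with a ratio of 3.56, was nested in an unchanged region of 1491 bp at exon 2 and intron 2. Both gained ratios were below those of most of the gained H2A.Zac list, above 20.6% and 1.78% of it.

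GYPE (ENSG00000197465, chr4:143870864-143905563, minus strand) had 1 unchanged H2A.Z region of 520 bp and 1 unchanged H2A.Zac region of 1340 bp. Both lay 5.9 kb or more upstream of the gene, within 1 kb of starts of the lncRNAs ENSG00000249741 and ENSG00000251600, and none lay in the gene or at its start. The promoters of GYPB (RefSeq, GRCh38.p14, chr4:144019381-144019630) and GYPE (chr4:143905560-143905809) were nearly the same: in a local alignment of the minus strands 205 of 209 positions were identical, or 98.1%. They are shown together because one start had H2A.Zac within 1 kb and the other had none, though no region lay over either stretch itself. The GYPB start lies farther upstream in the shared sequence, so the AGATAA near the GYPE start is cut off in the GYPB stretch. The stretch before another GYPB start, chr4:144019346-144019595, held both matches, as that of GYPE did.
GYPB canonical start: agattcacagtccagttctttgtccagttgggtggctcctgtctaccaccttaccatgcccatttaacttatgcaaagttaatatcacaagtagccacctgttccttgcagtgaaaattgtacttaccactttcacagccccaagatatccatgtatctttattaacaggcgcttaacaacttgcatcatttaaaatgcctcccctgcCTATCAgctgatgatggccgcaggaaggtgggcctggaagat
GYPE canonical start: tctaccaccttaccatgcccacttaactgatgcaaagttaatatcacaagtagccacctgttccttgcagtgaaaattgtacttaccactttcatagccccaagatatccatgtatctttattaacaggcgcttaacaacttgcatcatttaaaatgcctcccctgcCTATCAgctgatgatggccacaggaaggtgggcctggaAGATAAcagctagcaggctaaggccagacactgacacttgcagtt

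Duplicated sequence may limit what short reads can assign at this pair. Of the 100-base words of the gained GYPB regions, 58.7% in the intronic one and 21.5% in that at the start occurred again within the surrounding 1 Mb of hg38. The share was 15.6% over the body of GYPB and 18.5% over that of GYPE. In the unchanged regions of GYPB it was 16.9 and 11.3% for H2A.Zac and 14.7% for H2A.Z. In those of GYPE it was 4.67% for H2A.Zac and 0% for H2A.Z. The Bowtie2 options listed by the authors name no setting for reads with several matches and no filter on mapping quality. The part of repeated sequence in these calls was not tested.

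The 3 genes of band 3 and its partners gave different pictures. EPB42 (ENSG00000166947, chr15:43197227-43221018, minus strand) had 1 unchanged H2A.Z region of 781 bp and 2 unchanged H2A.Zac regions of 494 and 1258 bp. They lay 4.31 to 9.42 kb upstream of the gene at their near edges, and no region was listed in the gene or at its starts. Its promoter, which held 2 GATA matches in the absence of any listed region, is shown for comparison with the promoters above (RefSeq, GRCh38.p14, chr15:43221019-43221268, minus strand).
EPB42 canonical start: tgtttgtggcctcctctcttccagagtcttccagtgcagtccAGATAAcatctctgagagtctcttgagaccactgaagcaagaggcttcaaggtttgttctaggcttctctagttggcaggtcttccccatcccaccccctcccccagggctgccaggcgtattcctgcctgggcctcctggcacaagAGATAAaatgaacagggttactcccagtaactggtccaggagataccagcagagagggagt

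SLC4A1 (ENSG00000004939, chr17:44248390-44268141, minus strand), which encodes the chloride-bicarbonate exchanger band 3, had H2A.Zac but no H2A.Z at its start. A gained H2A.Zac region of 1353 bp, chr17:44268015-44269367, spanned the start and exon 1 with a ratio of 6.09, and passed upstream into an unchanged region of 799 bp. About 4.2 kb upstream a lost H2A.Zac region of 383 bp (ratio 3.87) joined unchanged H2A.Zac regions of 438 and 375 bp, over the one H2A.Z region of the window, 509 bp wide and unchanged. A further lost H2A.Zac region, of 643 bp with a ratio of 6.27, lay past the 3′ end, 26.9 kb from the start. The sole change at the start of SLC4A1 was a gain, and the losses were at least 4 kb away.

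ANK1 (ENSG00000029534, chr8:41653220-41896741, minus strand) was the member with the most regions, with 15 H2A.Z and 20 H2A.Zac regions. Its H2A.Z regions comprised 5 lost and 10 unchanged, and its H2A.Zac regions 4 lost, 4 gained and 12 unchanged. The lost and the gained H2A.Zac regions lay in different parts of the locus, with unchanged H2A.Zac regions in both parts. This arrangement was seen in the values and was not tested. The 4 gained regions lay at the canonical start and within intron 1 downstream of it, none farther than 5.41 kb from the start at its near edge. The 4 lost regions lay upstream of the canonical start, in an intron of longer transcripts that begin 99 kb earlier or before those transcripts. At the canonical start an unchanged H2A.Zac region of 5472 bp held gained parts of 336 bp (ratio 3.99) and 350 bp (ratio 3.64), and an unchanged H2A.Z region of 773 bp covered the start. Gained regions of 399 bp (ratio 8.01) and 882 bp (ratio 5.03) followed in the intron, with no H2A.Z over them. Of the latter, 665 bp were also listed as unchanged H2A.Zac. The lncRNA ENSG00000289514 also starts near the canonical start.

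For each mark the highest ratio of the 8 genes was that of a lost ANK1 region, while other lost ANK1 regions ranked below regions of other members. The widest lost ANK1 region, of H2A.Zac, spanned 2772 bp with a ratio of 16.9 and began 6.58 kb upstream of the first start of the gene. It lay 35.8 kb from the nearest start of another protein-coding gene, KAT6A. Inside it lay 3 lost H2A.Z regions, with ratios of 12.9, 4.84 and 3.85, the first above 95.8% of the lost H2A.Z list, and also an unchanged H2A.Z region of 354 bp and an unchanged H2A.Zac region of 343 bp. A second pair lay 9.53 kb upstream of the canonical start, where 1240 bp of H2A.Zac (ratio 15.4) and 904 bp of H2A.Z (ratio 8.88) were lost together. The other lost H2A.Zac regions of ANK1, 943 bp with a ratio of 11.6 and 317 bp with a ratio of 8.12, lay 38.2 and 18.2 kb upstream of the canonical start, the former over unchanged H2A.Z. A lost H2A.Z region of 591 bp (ratio 4.65) lay 1.73 kb upstream of that start within the wide unchanged H2A.Zac region. The remaining regions of the long intron were unchanged, among them both marks at the start of ENSG00000260588. No region was listed at the first starts of the gene or at the starts 30.1 kb and more downstream of the canonical one.

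**Figure D3:**
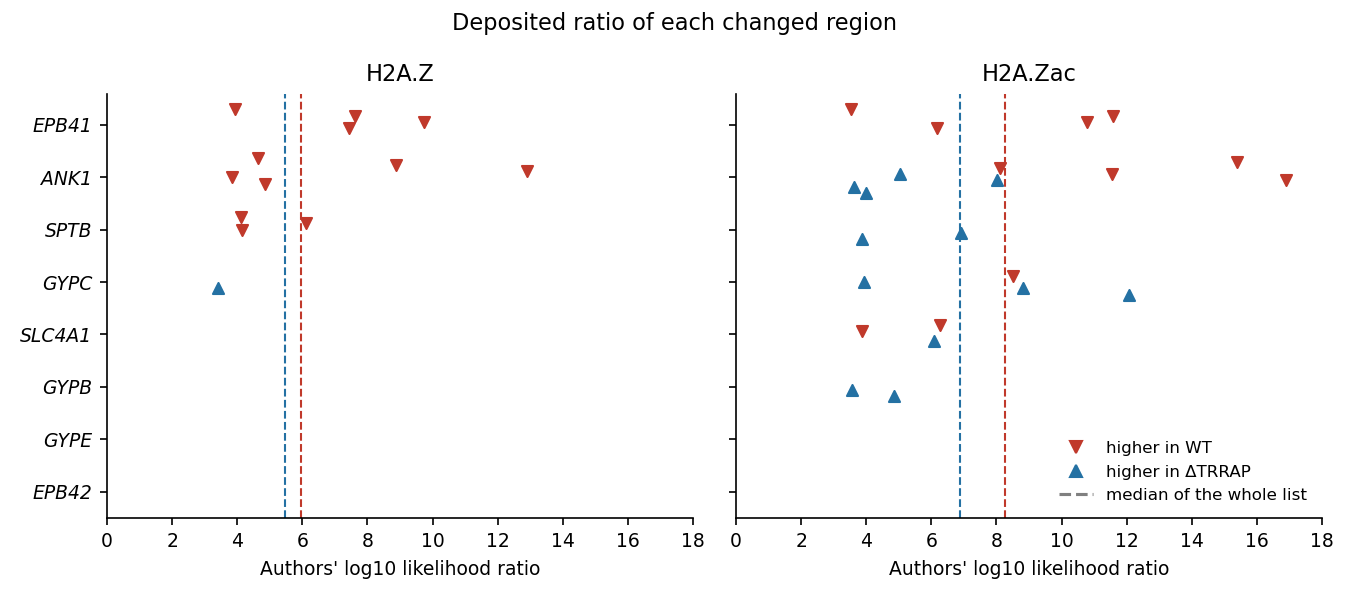
The authors' log10 likelihood ratio of each changed region by gene, for H2A.Z (left) and H2A.Zac (right); dashed lines are the medians of the whole lost (red) and gained (blue) lists. The highest ratios are those of regions lost at ANK1 (H2A.Z 12.9, H2A.Zac 16.9), and the highest gained ratio is 12.1 in GYPC.

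In ratio the lost regions lay near the medians of their lists, and the gained H2A.Zac regions were narrower and of lower ratio at the median. The median ratio of the lost H2A.Z regions was 5.48, and 5.95 in the whole list. For lost H2A.Zac the medians were 8.52 and 8.27. The gained H2A.Zac regions had a median ratio of 4.94, against 6.87 in the whole list, and a median width of 403 bp, against 664 bp. The lost H2A.Zac regions were 643 bp wide at the median (702 bp in the whole list), and the unchanged ones 1050 bp (735 bp).

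The pairing of the marks was counted by direction. Of the 12 lost H2A.Z regions, 7 had at least 25% of their length on lost H2A.Zac, 3 of these also on unchanged H2A.Zac. The other 5 lay on unchanged H2A.Zac alone, and were those of SPTB, 1 at ANK1 and 1 at EPB41. Of the 11 lost H2A.Zac regions, 6 lay on lost H2A.Z, 3 on unchanged H2A.Z alone and 2 on no H2A.Z region. Of those 6, 2 were the regions at the TMEM200B start. Of the 12 gained H2A.Zac regions 9 lay on no H2A.Z region, 2 on unchanged H2A.Z and 1, upstream of GYPC, on gained H2A.Z. In the whole H2A.Zac lists, 45.2% of lost regions and 43.1% of gained regions lay on no H2A.Z region. Of the whole lost H2A.Z list 65.9% lay on lost H2A.Zac. On unchanged H2A.Zac, alone or with another class, lay 13.7% of that list, and 26.9% lay on no H2A.Zac region. Lost H2A.Z lay under 28.6% of lost H2A.Zac regions, and gained H2A.Z under 18.7% of gained ones. At the 8 genes, lost H2A.Zac mostly lay where H2A.Z itself was listed, and gained H2A.Zac mostly where it was not. This difference was not tested, and several of the regions lie side by side. In the whole list the 2 directions were alike in this.

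In the other genes of the red cell membrane, lost and gained H2A.Z regions were about equal in number, and gains were in the majority for H2A.Zac. A list of 34 genes, with alpha spectrin, the adducins, tropomyosins, Rh proteins, transporters and blood group carriers, had 18 lost, 17 gained and 85 unchanged H2A.Z regions in the same kind of window. Its gained share of changed H2A.Z regions was 48.6% (33.0 to 64.4%), against 45.8% over all protein-coding genes. For H2A.Zac it had 38 lost, 85 gained and 138 unchanged regions, a gained share of 69.1% (60.5 to 76.6%) against 54.8% over all protein-coding genes. A list of 11 relatives of the members that serve in other cells (other ankyrins, spectrins, proteins of the 4.1 family and anion exchangers) had 22 lost, 6 gained and 49 unchanged H2A.Z regions, a gained share of 21.4% (10.2 to 39.5%). Of those 22 losses, 14 were at SPTBN4. For H2A.Zac the relatives had 26 lost, 43 gained and 53 unchanged regions, a gained share of 62.3% (50.5 to 72.8%). A gained H2A.Zac region was present at 28 of the 34 genes and at all 11 relatives, beside 59.4% of all protein-coding genes. The median window was 53.5 kb for the 34 genes and 161.3 kb for the relatives, against 47.5 kb over all protein-coding genes.

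**Figure D4:**
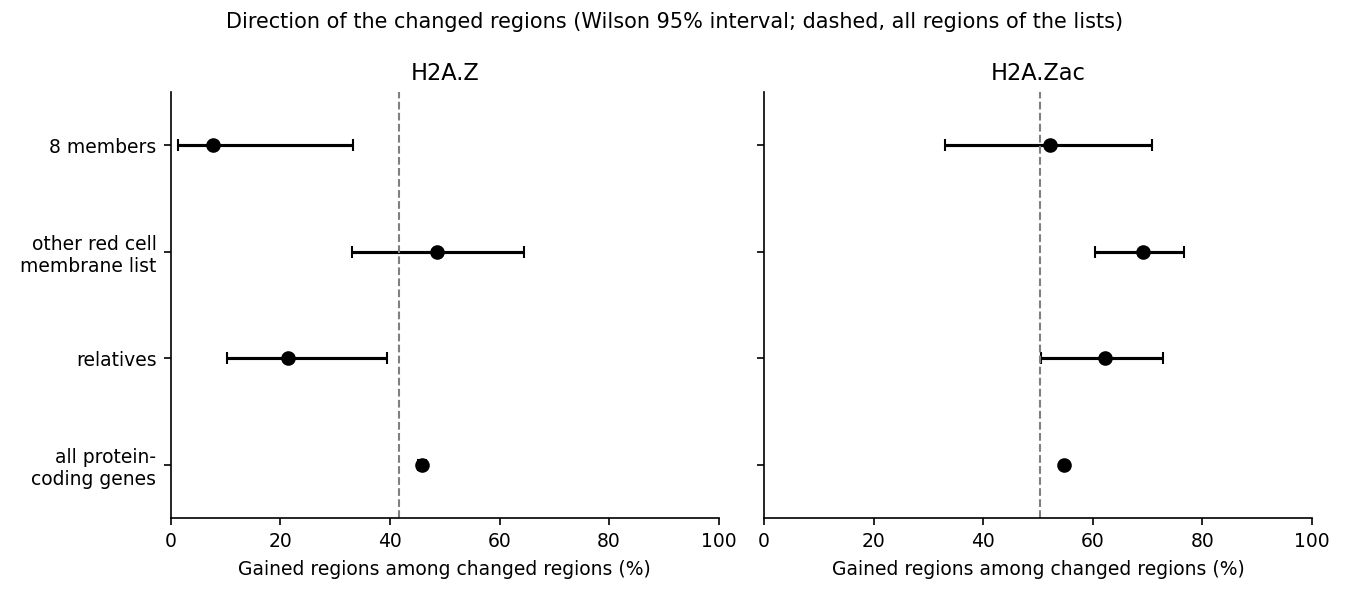
Share of gained regions among the changed regions of each gene list in percent, with Wilson 95% intervals, for H2A.Z (left) and H2A.Zac (right); dashed lines are the shares over all listed regions. For H2A.Z the 8 genes lie at 7.69%, the relatives at 21.4% and the other red cell membrane list at 48.6%, and the interval of the 8 genes overlaps both of theirs. For H2A.Zac the 8 genes lie at 52.2%.

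Starts with both marks lost were found in each list. The share of all genes with both marks lost or gained at a start is not given here, so these starts are examples only. Among the other red cell membrane genes the highest H2A.Zac ratios at such starts were 22.3 at DMTN, which encodes the actin-bundling protein dematin, 17.0 at PIEZO1, a mechanically gated ion channel, 13.5 at CD44, an adhesion receptor, 11.1 at SEMA7A, the carrier of a blood group antigen, and 10.6 at KCNN4, a calcium-activated potassium channel. Among the relatives it was 11.9 at SLC4A2, a widely expressed relative of band 3. Several of these genes also had a gained H2A.Zac region within 1 kb of a start, with a ratio of 6.26 at DMTN, 10.9 at PIEZO1, 5.57 at KCNN4 and 10.6 at SLC4A2. Both marks were gained at a start of ICAM4 (H2A.Zac ratio 8.02), a carrier of blood group antigens, and of TPM1 (7.72), a tropomyosin. They were also gained at a start of CD47 (7.08), a signal against phagocytosis, and of EPB41L1 (9.43), a relative of EPB41. EPB41L1 had both marks lost at a start as well (7.71), and whether it is the same start is not given here. Many losses were found at SPTBN4, with 14 for H2A.Z and 11 for H2A.Zac. Many gains were found at ANK3, with 4 for H2A.Z and 12 for H2A.Zac, at ATP2B4, a calcium pump, with 6 and 6, and at SPTBN1, with 1 and 10.

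The surroundings of the genes differed in direction. They were taken as fixed 5-Mb windows along each chromosome, in which a gene can lie near an edge. Gained regions made up 19.3% of the changed H2A.Z regions in the rest of the 5-Mb window that holds EPB41 (13.8 to 26.4%, 150 regions), and 39.2% of the changed H2A.Zac regions (33.9 to 44.8%, 306 regions). Losses at EPB41 thus lay in a window in which losses were more frequent than over the whole list. Around SPTB the H2A.Z share was 86.7% (62.1 to 96.3%, 15 regions), while the 3 changed H2A.Z regions of SPTB itself were all lost. Around ANK1 the shares were 40% and 50% for H2A.Z and H2A.Zac, around GYPC 66.7% and 53.2%, and around SLC4A1 33.3% and 46.1%. GYPB and GYPE share a window, with 60.9% for H2A.Z at both. For H2A.Zac it was 66.7% with the regions of GYPB left out. Around EPB42 the shares were 34.2% and 46.6%. The part of these surroundings in the changes at the genes was not tested.

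**Figure D5:**
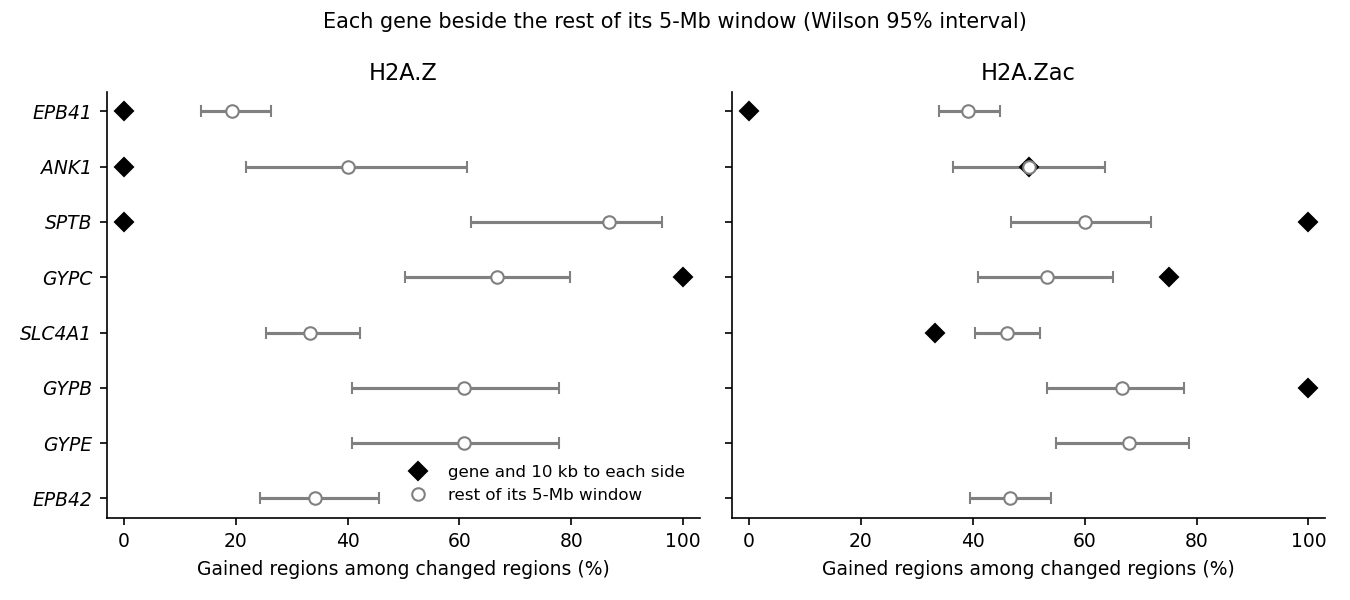
Share of gained regions among changed regions in percent, within each gene and its flanks (black diamonds, where any region changed) and in the rest of its 5-Mb window (open circles, Wilson 95% intervals). For H2A.Z, SPTB lies at 0% in a window at 86.7%, and EPB41 at 0% in a window at 19.3%. The windows are fixed along the chromosome, and SPTB lies near the end of its own.

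In base composition the regions of the 8 genes, all classes together, were slightly richer in GC than their lists. The median was 53.6% for H2A.Z (51.1% in the list) and 52.0% for H2A.Zac (49.8%). The lost and unchanged classes lay above their lists. The gained classes lay below, at 46.1% for H2A.Zac (48.6%) and 46.5% for the 1 H2A.Z region (47.1%). The GATA letters were present in the 300 bases around the center of 21 of 53 H2A.Zac regions, or 39.6%, beside 33.8% of the whole list, and in 9 of 36 H2A.Z regions, or 25%, beside 30.7%. By class they were found in 5 of 12 gained, 3 of 11 lost and 13 of 30 unchanged H2A.Zac regions, beside 37.3%, 32.3% and 32.7% of the same classes in the whole list. For H2A.Z they were found in 2 of 12 lost and 7 of 23 unchanged regions, beside 28.8% and 29.1%, and not in the 1 gained region (40.6%). The CACCC box, the letters bound by the erythroid factor KLF1 among others, was present in 64.2% of the H2A.Zac regions (57.1% of the list) and the E-box letters in 37.7% (29.6%). Among the H2A.Z regions the CACCC box was present in 63.9% (57.9% of the list) and the E-box letters in 25% (30.1%). The AP-1 letters TGAGTCA or TGACTCA were present in 2 H2A.Zac regions, or 3.77% (6.58% of the list), and in no H2A.Z region (5.73% of the list). Each motif was sought on both strands, and a match is a description of the letters and not of a bound factor. RefSeq promoters were matched for 6 of the 8 genes by symbol, with 9 starts in all, and none for ANK1 or SLC4A1. A GATA match lay in the 250 bases before 7 of these 9 starts, and in 22.3% of 35116 such stretches over all genes. The 9 are not independent, since the stretches of GYPB overlap each other and are nearly those of GYPE. A GATA match was present both at starts with listed regions, such as those of SPTB and GYPC, and at starts without, those of GYPE and EPB42. The E-box letters lay before starts of GYPC, GYPE, GYPB and SPTB (24.3% of stretches over all genes). At SPTB they lay only before a downstream start, in a stretch with no listed region. The CACCC box lay before starts of GYPC, GYPB, SPTB and EPB42 (54.7%), and the AP-1 letters before none (4.20%). These are shares of stretches, and the genes named are not a share to set against them.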

How the data were processed

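H2A.Z and H2A.Zac ChIP-seq and input libraries of 12 samples in K562 cells were aligned by the authors to hg38 (Bowtie2 2.4.5). Peaks were called and compared with MACS2 2.2.7.1, and regions with at least 25% of their length in peaks reproducible at an IDR of 0.05 were kept. The deposited lists give each region a score, the authors' log10 likelihood ratio from bdgdiff for the merged replicates. The merging, scaling to depth and filtering are thus in the lists, and 1 peak can appear as several regions. The rescue groups were those of the labels.

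Here regions were assigned to genes and starts with GENCODE release 44, later than the authors' annotation. A start was near a region when within 1 kb, and overlap of marks meant at least 25% of a region. Wilson intervals came from scipy 1.17.1, alignments from Biopython 1.88, and sequences from hg38 and RefSeq. Python 3.11.15, numpy 2.4.6, pandas 2.3.3, pysam 0.24.0 and matplotlib 3.10.9 were used. Counting was tested on simulated data and against bedtools 2.31.1. The genes and lists were chosen with earlier results of these data known. Genes named outside the members were those with a start within 1 kb of a member's region and, of the other lists, up to 5 per direction with the highest H2A.Zac ratio at a start with both marks changed alike, or with the most changed regions. Those named after their values were seen are KAT6A and the regions at TMEM200B left out as an alternative. Input libraries, signal and expression were not analysed here.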

Additional observations from a re-analysis of the deposited data

How the results depend on the processing

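Each share over the 8 genes was recomputed with flanks of 2 kb or none, higher ratios, wider or merged regions, base pairs, a minimum overlap with the window, regions away from starts of other genes, each gene left out, and, chosen after seeing the data, without the TMEM200B start. The gained share of changed H2A.Zac regions lay between 33.3 and 64.7% except at a ratio of at least 10 for changed regions, where it was 16.7% (1 of 6; whole list 40.7%). The changed share of H2A.Zac lay between 31.8 and 45.5%, except 16.7% at that ratio (whole list 26.2%). The gained share of changed H2A.Z regions rests on the 1 region upstream of GYPC. It was 0% with a flank of 2 kb (0 of 8), with the gene body only (0 of 7) and without GYPC (0 of 12). At ratios of at least 5 (0 of 6) or 10 (0 of 1) it was also 0% (whole list 38.5 and 39.1%). For regions of at least 500 bp it was 0% as well (0 of 4, whole list 36.8%). It was otherwise between 4.51 and 12.5%. The changed share of H2A.Z was 20.7% at a ratio of at least 5, 4.17% at 10 and 19.0% for regions of at least 500 bp (whole list 25.2, 5.23 and 26.5%), and otherwise between 27.1 and 39.3%. The ratio cutoffs remove changed regions by construction; for the width cutoff the cause was not tested. Within 2 kb of a start instead of 1 kb lay 27 rather than 22 regions. H2A.Zac regions with H2A.Z made up 56.6%, 58.5% at an overlap of 1 bp and 45.3% at 50%. No paired analysis was possible because the lists hold merged replicates. No replicate could be left out for the same reason, and depth is unknown.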
